A study of Mus musculus with 121 samples.

Results

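Mouse fibroblasts that had gone through HL cycles were compared at the first collection, taken as 0 h, and at the fourth, 12 h later. The titles of the deposited samples put 3 libraries in HL collection 1 (replicates 2, 3 and 4, clock hour 20) and 4 libraries in HL collection 4 (replicates 1 to 4, clock hour 8), which is 7 of the 62 libraries of the series. The cells are an immortalized ear fibroblast line from a knock-in mouse of genotype PER2::LUC sv, in which luciferase is fused to the clock protein PER2, and all libraries carry this allele and the same passage label, P25. In HL the medium alternated every 12 h for 3 cycles between H, which is rich in glucose and insulin, and L, which is low in both, with H first. HH cells received H throughout each cycle and serve as the reference for the same clock hours, with 4 libraries in collection 1 and 2 in collection 4. After the cycles the cells ran free, without further alternation of media, for 12 h, and RNA was then taken every 4 h. Expression was measured by 3′ digital gene expression sequencing, which counts reads at the 3′ ends of transcripts, and levels are given as CPM, counts scaled to the same total on genes in every library.

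The names of the collection 4 libraries are in dispute. The read summary of the sequencing service, keyed by library number, calls collection 4 replicates 1 and 2 libraries of LH collection 2, and replicates 3 and 4 libraries of LH collection 3, where LH is the opposite order of media. The 4 numbers that it calls HL collection 4 were deposited under titles of LH, 2 of collection 4 and 2 of collection 5. For the 3 libraries of HL collection 1 and the 6 HH libraries both sources give the same name. Set against the reads that this summary lists, the second-run totals of all 7 HL libraries matched exactly by library number, whereas by title a match was found for the 3 of collection 1 and for none of collection 4. These totals tie the files to numbers and do not say which name is right. The groups below follow the titles, and each called gene, with Bhlhe41, Cry1, Cry2, Per1, Arntl, Dbp, Tef and Nfil3, is also given for replicates 1 and 2 alone, for replicates 3 and 4 alone, and for the 4 libraries named HL collection 4 by number. These sets share the collection 1 libraries, so they are not independent of each other. The split into replicates 1 and 2 and replicates 3 and 4 was chosen after the data were seen. The p-values of these pairs are therefore descriptive and lend no separate support. The study's methods state in general that replicates were biological, and the labels do not say which libraries came from separate cultures, so p-values measure the spread between these libraries.

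Library totals were 5548099 to 9785826 counts in collection 1 and 4215033 to 8319236 in collection 4. The summed level of 12 fibroblast markers, such as collagen chains and Vim, was 37356 to 38590 CPM in collection 1 and 33774 to 39138 CPM in collection 4. Keratinocyte markers summed to at most 8.30 CPM and immune cell markers to at most 33.5 CPM in any of the 7 libraries, and the T cell marker Cd3e had no count. Adipocyte markers summed to 4.69 to 7.36 CPM and neural and Schwann cell markers to 3.65 to 14.1 CPM. The endothelial list summed to 144.0 to 217.0 CPM in collection 1 and 119.5 to 231.1 CPM in collection 4, and the chondrocyte list to 380.9 to 535.2 CPM and 485.4 to 545.3 CPM. In each of these 2 lists 1 of 7 markers reached a mean of 1 CPM, and the defining genes Cldn5 and Col2a1 had no count. The muscle list summed to 3.43 to 3.68 CPM in collection 1 and 0.713 to 1.82 CPM in collection 4, with its defining genes Myod1 and Myog at 0 in both. In bulk RNA, a change in the share of a kind of cell and a change of RNA per cell cannot be told apart.

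The circadian clock of mammalian cells is a feedback loop of transcription. The activators CLOCK and BMAL1 (the product of Arntl) switch on the Per and Cry genes, whose proteins repress them, and also switch on Nr1d1 and Nr1d2, which encode the nuclear receptors REV-ERBα and REV-ERBβ that hold Arntl and Nfil3 down. The same activators drive Dbp and Tef, transcription factors that carry the rhythm to output genes. In fibroblasts the clock runs in each cell, and medium changes and insulin are known to shift it.

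Promoter sequences are shown for the 3 genes with the smallest p in the list of clock repressors and the 4 with the smallest p in the list of interferon and MHC class I genes, both described below. The windows hold the 250 bases before the RefSeq gene start on GRCm38.p6, the patch version of mm10, and were searched on both strands for the E-box CACGTG (bound by CLOCK and BMAL1), the D-box TTANGTAA (bound by DBP and TEF), the element TAGGTCA (bound by REV-ERB and ROR receptors) and the interferon-type element GAAANNGAAA. Capitals mark matches, different motifs do not overlap in the windows shown, and adjacent copies of the interferon-type element overlap in Isg15.
Nr1d1, chr11:98775378-98775627, minus strand: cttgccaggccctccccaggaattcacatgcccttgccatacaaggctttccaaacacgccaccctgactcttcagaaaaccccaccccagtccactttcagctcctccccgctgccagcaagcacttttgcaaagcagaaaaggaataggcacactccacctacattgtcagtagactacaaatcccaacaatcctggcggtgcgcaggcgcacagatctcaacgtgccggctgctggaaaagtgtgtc
Nr1d2, chr14:18239107-18239356, minus strand: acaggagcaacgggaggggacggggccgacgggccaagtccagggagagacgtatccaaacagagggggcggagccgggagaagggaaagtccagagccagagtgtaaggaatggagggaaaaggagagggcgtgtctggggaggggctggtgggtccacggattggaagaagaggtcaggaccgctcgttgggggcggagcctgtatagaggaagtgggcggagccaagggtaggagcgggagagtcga
Bhlhe41, chr6:145865421-145865670, minus strand: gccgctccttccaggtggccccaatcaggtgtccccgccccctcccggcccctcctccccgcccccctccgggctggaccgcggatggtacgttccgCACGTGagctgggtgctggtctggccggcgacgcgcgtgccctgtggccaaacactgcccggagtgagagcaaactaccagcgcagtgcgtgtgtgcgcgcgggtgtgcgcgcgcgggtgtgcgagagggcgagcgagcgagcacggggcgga
Ifit3, chr19:34583279-34583528, plus strand: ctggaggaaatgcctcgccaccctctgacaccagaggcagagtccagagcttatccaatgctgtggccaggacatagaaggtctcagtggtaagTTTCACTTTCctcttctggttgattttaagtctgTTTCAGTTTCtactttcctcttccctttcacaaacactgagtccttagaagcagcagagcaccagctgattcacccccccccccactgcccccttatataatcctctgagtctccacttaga
Oasl2, chr5:114896684-114896933, plus strand: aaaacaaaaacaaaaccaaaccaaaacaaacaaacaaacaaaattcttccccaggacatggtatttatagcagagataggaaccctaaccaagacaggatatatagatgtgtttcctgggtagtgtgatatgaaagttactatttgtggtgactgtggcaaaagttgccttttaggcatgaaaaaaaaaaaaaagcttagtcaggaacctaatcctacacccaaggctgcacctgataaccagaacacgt
Ifit1, chr19:34640639-34640888, plus strand: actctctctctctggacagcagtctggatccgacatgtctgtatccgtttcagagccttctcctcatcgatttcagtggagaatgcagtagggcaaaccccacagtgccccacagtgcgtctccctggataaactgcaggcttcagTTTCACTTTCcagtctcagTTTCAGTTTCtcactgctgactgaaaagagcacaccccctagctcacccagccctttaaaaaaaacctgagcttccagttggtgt
Isg15, chr4:156200819-156201068, minus strand: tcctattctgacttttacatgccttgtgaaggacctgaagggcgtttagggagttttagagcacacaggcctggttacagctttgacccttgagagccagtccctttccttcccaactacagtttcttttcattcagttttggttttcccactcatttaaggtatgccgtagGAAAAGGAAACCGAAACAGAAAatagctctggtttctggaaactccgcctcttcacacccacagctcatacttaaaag
Among 32851 such windows of all genes, 6.02% held the E-box, 2.06% the D-box, 2.23% the REV-ERB element and 2.98% the interferon-type element. The windows of Nr1d1 and Nr1d2 held none of these exact letters, and that of Bhlhe41 held 1 E-box. The interferon-type element occurred 2 times in Ifit3, 2 times in Ifit1, 3 times in Isg15 and not in Oasl2. In the wider lists, 3 of the 7 clock repressor genes with a window had an E-box. So did 0 of 6 clock activators, 1 of 8 clock output factors and 6 of 38 replication genes. In the interferon and MHC list and in the actin list it was 1 of 18 each. The interferon-type element was in 6 of the 18 interferon and MHC genes with a window. These counts take a gene with the motif in any of its windows, whereas the shares above are of single windows. A match is a description of letters and not evidence of binding.

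Of 11497 genes that reached 1 CPM in 3 or more of the 7 libraries, 9 differed between 0 h and 12 h at an adjusted p under 0.05 (edgeR quasi-likelihood test, Benjamini-Hochberg adjustment), which is 0.0783% of the genes tested. Of these, 3 rose by 12 h (0.0261%) and 6 fell (0.0522%). The genes that rose were Nr1d1, Nr1d2 and the interferon-induced gene Ifit3, and those that fell were Tagln, Cnn1, Timp1, Dtx4, Hist2h2ac and 2900060B14Rik. Before adjustment, 670 genes (5.83%) had a p under 0.05, 328 of them higher at 12 h (2.85%) and 342 lower (2.97%). The libraries of the groups did not overlap for 411 genes that were higher (3.57%) and 390 that were lower (3.39%). The median log2 change over all genes was 0.001. In HH, 206 of 11390 genes (1.81%) passed the same test between the same clock hours, 132 higher (1.16%) and 74 lower (0.65%). This HH count rests on few libraries: it was 33 to 46 without any 1 of the collection 1 libraries and 1116 without collection 4 replicate 1.

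**Figure D1:**
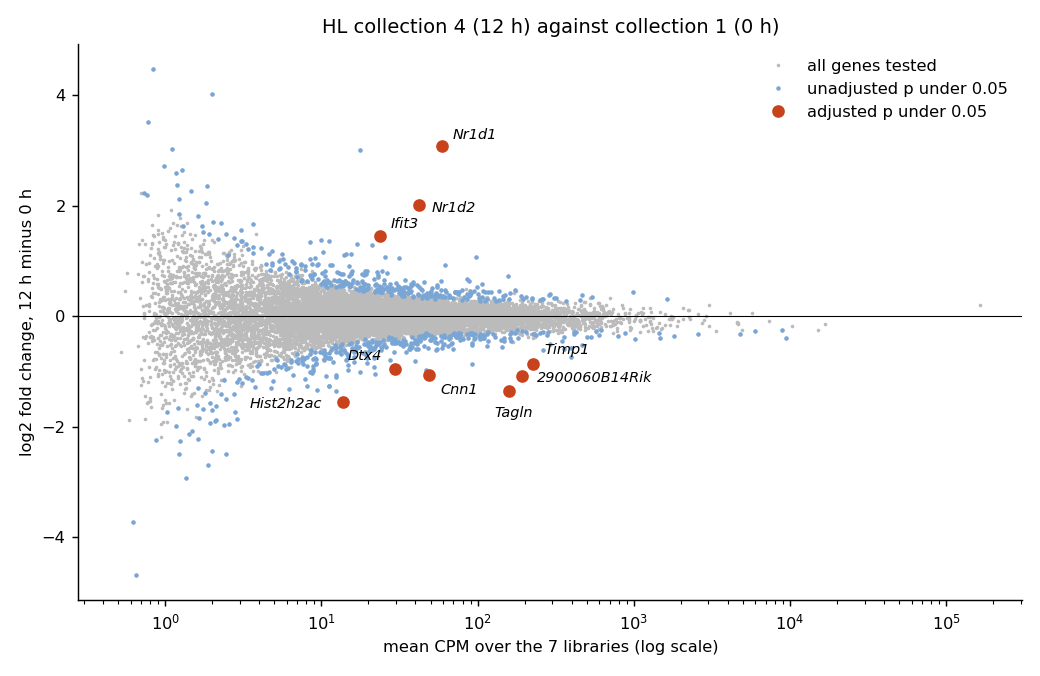
The log2 fold change between HL 0 h and 12 h (vertical axis, positive where 12 h is higher) is plotted against the mean CPM of the 7 libraries (horizontal axis, log scale), 1 point for each of the 11497 genes. The 9 labelled genes passed an adjusted p of 0.05, with Nr1d1 at 3.08 the highest of them and Hist2h2ac at -1.56 the lowest.

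The REV-ERB genes had the largest rises among the called genes. Nr1d1 (ENSMUSG00000020889, chr11:98767932-98775333 on mm10, minus strand) was at 11.1, 15.5 and 7.38 CPM in the 0 h libraries. At 12 h it was at 41.5 and 32.3 CPM in replicates 1 and 2, and at 141.8 and 161.6 CPM in replicates 3 and 4. All 12 h libraries were above all 0 h libraries, and within 12 h the pairs that the read summary separates lay far apart. The increase was 8.44-fold (log2 3.08 ± 0.47 SE, adjusted p = 0.0129, edgeR). Nr1d1 overlaps the oppositely oriented Thra, the thyroid hormone receptor gene, by 1075 bases, and whether counting used strand is not given in the sources used here. Thra itself had a log2 change of 0.01 ± 0.12. Arntl, Dbp, Tef, Ccne2, Nid1, Nid2, Rora, Rfc2, Rfc5, Lig1 and Mtbp also overlap oppositely oriented genes, and their counts share this uncertainty. Per3 and Ccdc62 overlap genes on their own strand, by 41014 bases with Camta1 and by 7710 bases with Gm43518. Their counts are uncertain whether or not counting used strand.

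Nr1d2 (ENSMUSG00000021775, chr14:18204054-18239127, minus strand) followed the same order. It was at 15.1, 19.6 and 11.4 CPM at 0 h, and at 48.9, 30.3, 81.4 and 87.3 CPM in replicates 1 to 4 at 12 h, without overlap between the groups. The increase was 4.05-fold (log2 2.02 ± 0.30 SE, adjusted p = 0.0129, edgeR). With replicates 1 and 2 alone the log2 change of Nr1d2 was 1.33 (adjusted p = 0.395) and that of Nr1d1 was 1.68 (adjusted p = 0.098), while replicates 3 and 4 alone gave 2.47 and 3.76 (adjusted p = 6.92e-06 and 6.35e-08). By library number the log2 changes were 2.54 for Nr1d2 and 2.90 for Nr1d1, and in HH they were 2.63 and 2.98, all past the threshold.

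**Figure D2:**
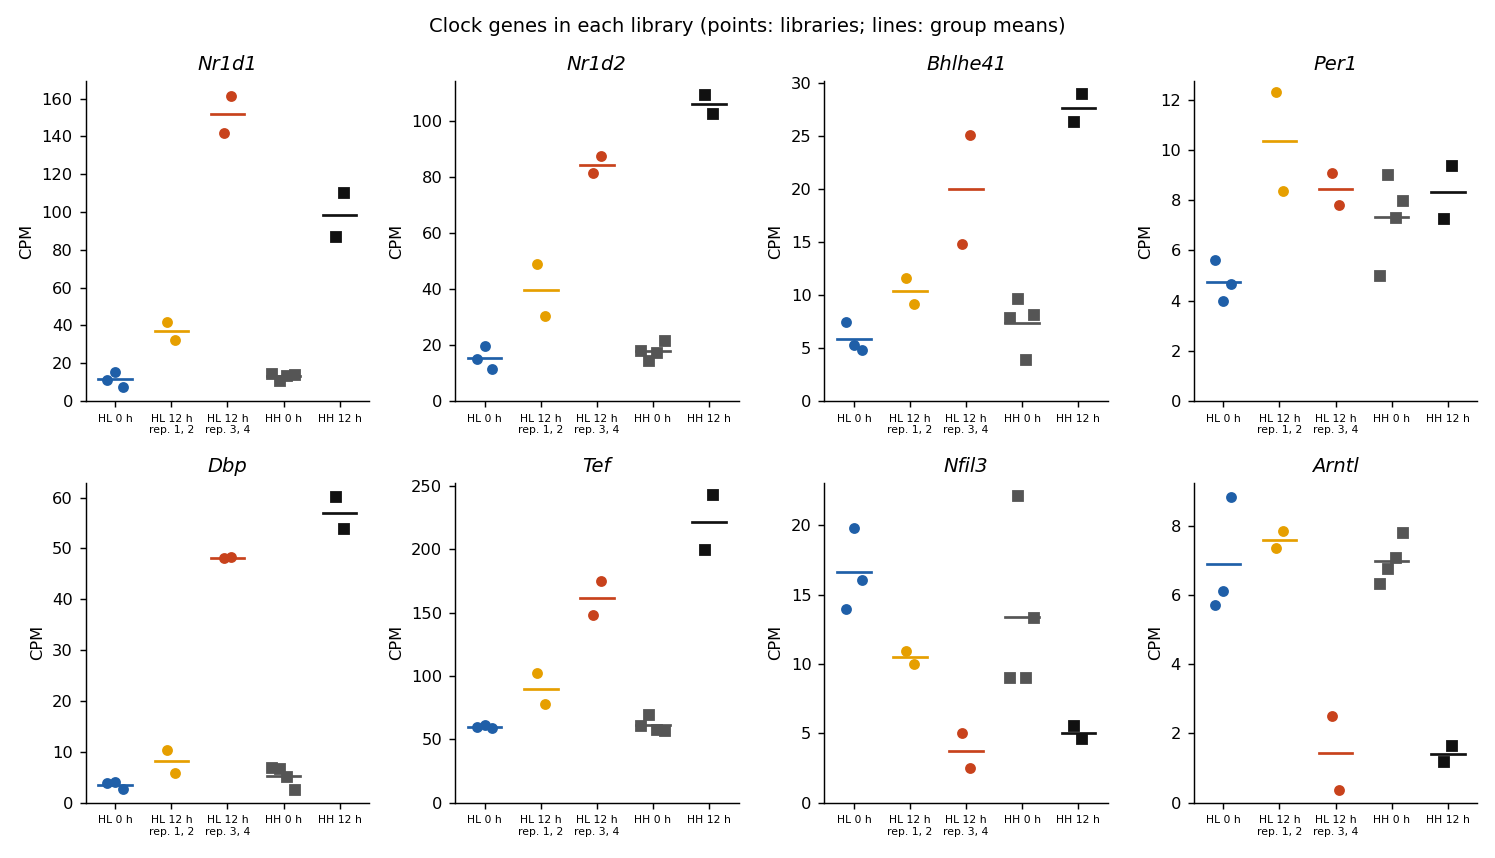
CPM of 8 clock genes (vertical axes, from 0) in each library of HL 0 h, of HL 12 h split into replicates 1 and 2 and replicates 3 and 4, of HH 0 h and of HH 12 h. Points are libraries and lines are means, and for Dbp replicates 3 and 4 (48.1 and 48.3 CPM) sit closer to HH 12 h (53.9 and 60.1 CPM) than to replicates 1 and 2 (10.4 and 5.84 CPM).

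The other clock repressors gave no adjusted call. The list has 10 genes, of which 9 were tested. With Nr1d1 and Nr1d2 counted in, 5 of the 9 were higher and 1 lower at 12 h by an unadjusted p under 0.05, against 2.85% of all genes higher and 2.97% lower, and the median log2 change was 0.95. By library number 9 of 10 were higher and 0 lower, against 3.53% and 3.51% of all genes, with a median of 2.09. Bhlhe41, which encodes the repressor DEC2, was at 4.82 to 7.46 CPM at 0 h and at 11.6, 9.12, 14.8 and 25.1 CPM at 12 h, without overlap (log2 1.37 ± 0.34 SE, adjusted p = 0.25). For Bhlhe41 replicates 1 and 2 alone gave 0.78 (adjusted p = 0.856), replicates 3 and 4 gave 1.76 (adjusted p = 0.0375) and the library numbers gave 1.97 (adjusted p = 0.000945, edgeR). Per1 was also without overlap, at 3.97 to 5.62 CPM against 7.81 to 12.3 CPM, and its log2 change of 0.95 had an adjusted p of 0.663. For Per1 the pairs gave 1.07 and 0.82 (adjusted p = 0.856 and 0.999), the library numbers 1.48 (adjusted p = 0.0675) and HH 0.24 (adjusted p = 0.805). Cry2 had a log2 change of 1.05 (adjusted p = 0.673) and Cry1 one of -0.98 (adjusted p = 0.663). The log2 change of Cry2 was 0.59 and 1.38 in the pairs (adjusted p = 0.892 and 0.446), 1.36 by library number (adjusted p = 0.145) and 1.47 in HH (adjusted p = 0.0221). That of Cry1 was -0.59 and -1.46 in the pairs (adjusted p = 0.863 and 0.154), -0.28 by library number (adjusted p = 0.896) and 0.09 in HH (adjusted p = 0.902). Cry1 in replicate 2 at 12 h, at 19.5 CPM, lay among the 0 h libraries (13.5 to 27.2 CPM), whereas the other 12 h libraries were at 6.85 to 8.02 CPM.

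Per2 and Per3, which encode core repressors of the loop, were not called in the titled comparison. Per2 was at 1.94, 0.901 and 1.61 CPM at 0 h and at 0.475, 0.182, 2.32 and 2.04 CPM at 12 h, so that replicates 1 and 2 were below every 0 h library and replicates 3 and 4 above (log2 -0.22 ± 0.77 SE, adjusted p = 0.987). Per3 was at 1.77 to 4.8 CPM and 2.37 to 8.73 CPM (log2 0.51 ± 0.49 SE). In HH, Per2 rose from 0.666 to 2.76 CPM at 0 h to 13.2 and 12.3 CPM at 12 h (log2 2.90, adjusted p = 0.0046), and Per3 rose with a log2 change of 2.47 (adjusted p = 0.00106). In the 4 libraries that the read summary names HL collection 4, Per2 was at 4.20 to 12.5 CPM (log2 2.42, adjusted p = 0.0521) and Per3 had a log2 change of 2.22 (adjusted p = 0.0345). The HL change of Per2 by titles minus its HH change was -3.12 on the log2 scale (adjusted p = 0.455). The HL libraries held 1 to 19 counts of Per2 each, which limits what can be read from it. Ciart, another repressor, stayed under the level for testing, at 0.204 to 0.361 CPM at 0 h and 0.237 to 1.96 CPM at 12 h.

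Of the clock activators, 6 of 7 were tested and none had a p under 0.05 in either direction, with a median log2 change of -0.36. Among all genes 2.85% were higher and 2.97% lower. Replicates 1 and 2 gave 0 lower, replicates 3 and 4 gave 2 and the library numbers 3. In these fits 3.11%, 2.44% and 3.51% of all genes were lower. In HH 5 were tested, and 2 were lower and 1 higher, where 16.2% of all genes passed in either direction. There 1 activator fell by the adjusted test, against 0.65% of all genes. Arntl was at 5.72, 6.13 and 8.83 CPM at 0 h. At 12 h it was at 7.36 and 7.84 CPM in replicates 1 and 2, within the 0 h range, and at 2.50 and 0.361 CPM in replicates 3 and 4, below it. The pooled log2 change of Arntl was -0.67 ± 0.58 SE (adjusted p = 0.94), while replicates 1 and 2 alone gave 0.12 (adjusted p = 0.98), replicates 3 and 4 alone -2.35 (adjusted p = 0.446), the library numbers -2.65 (adjusted p = 0.135) and HH -2.23 (adjusted p = 0.0301). Clock, at 66.3 to 89.8 CPM and 60.7 to 76.9 CPM, had a log2 change of -0.12 ± 0.15 SE. Npas2, a paralog of Clock, was at 1.44 to 1.94 CPM and 0 to 3.10 CPM. Rora, a receptor that opposes the REV-ERBs, was at 160.7 to 168.0 CPM and 129.4 to 207.4 CPM.

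Among the output factors, Dbp and Tef were higher at 12 h and Nfil3, a repressor of the same binding element, was lower, without an adjusted call. Dbp was at 3.88, 3.97 and 2.73 CPM at 0 h and at 10.4, 5.84, 48.1 and 48.3 CPM at 12 h. Every 12 h library was above every 0 h library, and replicates 3 and 4 were far above replicates 1 and 2 (log2 3.01 ± 0.58 SE, adjusted p = 0.068, edgeR). Tef was at 60.0, 60.9 and 58.6 CPM at 0 h and at 102.0, 77.5, 148.3 and 174.8 CPM at 12 h (log2 1.07 ± 0.21 SE, adjusted p = 0.0849). Nfil3 was at 14, 19.8 and 16.1 CPM and then at 10.9, 10.0, 4.99 and 2.52 CPM (log2 -1.27 ± 0.36 SE, adjusted p = 0.464). With replicates 3 and 4 alone all of these passed, at log2 3.77 for Dbp, 1.44 for Tef and -2.16 for Nfil3 (adjusted p = 3e-07, 0.000154 and 0.0308, edgeR). With replicates 1 and 2 alone they were 1.16, 0.56 and -0.68, and the adjusted p was 0.856 in all 3 cases. The library numbers gave 4.43, 1.88 and -1.68 (adjusted p = 1.34e-06, 6.24e-06 and 0.017). In HH, Dbp rose by 3.52 and Tef by 1.92 on the log2 scale. The remaining output genes had log2 changes from -0.28 (Hlf) to 0.39 (Nampt), all with overlapping groups.

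Over the whole table, replicates 1 and 2 alone gave 2 calls among 11193 genes (0.0179%), Tagln and 2900060B14Rik. Replicates 3 and 4 alone gave 17 among 11213 (0.152%), of which 7 were among the 9 of the full comparison, and the clock genes Nr1d1, Nr1d2, Bhlhe41, Dbp, Tef and Nfil3 made up 6 of the 17. By library number there were 19 among 11530 (0.165%), of which 5 were among the 9. The first pair differed from 0 h by an unadjusted p under 0.05 in 2.36% of genes upward and 3.11% downward, and the second pair in 1.91% and 2.44%.

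**Figure D3:**
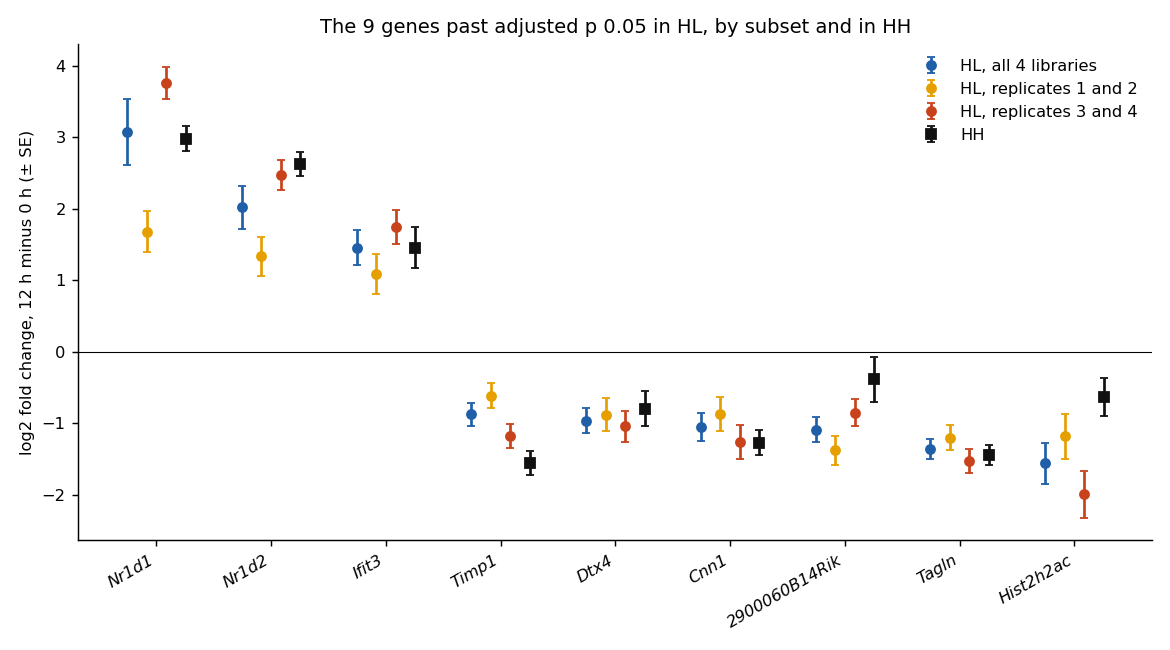
Log2 fold change from 0 h to 12 h (vertical axis) with its standard error for the 9 genes past the threshold in HL, from all 4 titled 12 h libraries, from replicates 1 and 2, from replicates 3 and 4, and from HH. Nr1d1 shows the widest gap between the pairs, 1.68 against 3.76, while Tagln stays between -1.20 and -1.53 in all 4 sets.

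Of the genes of the contractile actin cytoskeleton, Tagln and Cnn1 fell. Tagln (ENSMUSG00000032085, chr9:45929619-45936058, minus strand), which encodes the actin-binding protein transgelin, was at 239.7, 245.7 and 245.9 CPM at 0 h. It was at 100.8, 114.4, 87.0 and 80.8 CPM at 12 h, so the 0 h libraries were nearly equal and every 12 h library was far below them. The fall was 2.56-fold (log2 -1.36 ± 0.14 SE, adjusted p = 0.00011, edgeR). Both pairs of 12 h libraries passed on their own, at -1.20 (adjusted p = 0.0251) and -1.53 (adjusted p = 0.00012). By library number the log2 change of Tagln was -1.20 (adjusted p = 0.017) and in HH it was -1.45 (adjusted p = 1.56e-05). Tagln overlaps the oppositely oriented Gm48529, which was not tested, by 3627 bases, and Pcsk7 by 108 bases, whose log2 change was 0.73 ± 0.44 SE.

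Cnn1 (ENSMUSG00000001349, chr9:22099216-22109630, plus strand) encodes calponin, which binds actin and myosin in smooth muscle and myofibroblasts. It was at 65.5, 92.8 and 51.0 CPM at 0 h and at 37.5, 39.6, 24.4 and 33.1 CPM at 12 h, without overlap (2.08-fold lower, log2 -1.06 ± 0.20 SE, adjusted p = 0.0483, edgeR). The call of Cnn1 did not hold with replicates 1 and 2 alone (log2 -0.87, adjusted p = 0.856) or by library number (log2 -0.71, adjusted p = 0.42), and it held with replicates 3 and 4 alone (log2 -1.26, adjusted p = 0.0375). Acta2, smooth muscle actin, was at 417.8 to 587.9 CPM and then at 250.7 to 392.2 CPM (log2 -0.74 ± 0.15 SE, adjusted p = 0.0904). Tpm2, a tropomyosin, was at 280.7 to 388.9 CPM and then at 208.2 to 233.5 CPM (log2 -0.60 ± 0.13 SE, adjusted p = 0.125). In the list of serum response factor and actin genes, 22 were tested, 2 fell by the adjusted test (0.0522% of all genes did), 6 were lower and 1 was higher by an unadjusted p under 0.05, against 2.85% of all genes higher and 2.97% lower, and the median log2 change was -0.16. Without overlap 6 were lower and 1 was higher, against 3.39% and 3.57% of all genes, and the other 15 overlapped, Actb among them. The replicate pairs each gave 6 lower and 1 higher, where 3.11% and 2.44% of all genes were lower and 2.36% and 1.91% higher. By library number 4 were lower and 3 higher (3.51% and 3.53% of all genes) and the median was 0.03, so the median of the list did not keep its sign. In HH 5 of 22 fell by the adjusted test, against 0.65% of all genes, Tagln, Cnn1 and Acta2 among them, and 1 rose, against 1.16%. The summed muscle list was also lower at 12 h, mostly through Tnnt2 (log2 -1.58 ± 0.64 SE), and its part in the result was not tested.

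Of 13 tested metalloproteinases and their inhibitors, 1 fell by the adjusted test, against 0.0522% of all genes, 3 were lower and 0 higher by an unadjusted p under 0.05, and the median log2 change was -0.003. Timp1 (ENSMUSG00000001131, chrX:20870166-20874735, plus strand), an inhibitor of matrix metalloproteinases, was at 253.7, 339.4 and 320.5 CPM at 0 h and at 206.4, 197.0, 134.5 and 132.2 CPM at 12 h. All 12 h libraries were below the 0 h libraries (1.83-fold lower, log2 -0.87 ± 0.16 SE, adjusted p = 0.0483, edgeR), and in HH Timp1 fell by 1.56 on the log2 scale. For Timp1 replicates 1 and 2 alone gave -0.62 (adjusted p = 0.856), replicates 3 and 4 alone -1.18 (adjusted p = 0.00403) and the library numbers -1.11 (adjusted p = 0.000945, edgeR). Its whole length of 4570 bases lies within Syn1 on the other strand, which was too low to be tested. Nid1, a basement membrane protein, was 152.6 to 186.1 CPM and then 98.2 to 146.3 CPM (log2 -0.56 ± 0.15 SE, adjusted p = 0.329). Nid2 went the other way, from 66.5 to 93.55 CPM at 0 h to 84.5 to 149.2 CPM at 12 h (log2 0.53, adjusted p = 0.618, edgeR). Postn, periostin, was 892.4 to 900.2 CPM and then 649.8 to 809.7 CPM (log2 -0.36 ± 0.12 SE, adjusted p = 0.635). In the list of matrix glycoproteins 4 of 32 were higher and 4 lower by an unadjusted p under 0.05, and of 18 collagen chains 1 was higher and 2 were lower, against 2.85% of all genes higher and 2.97% lower.

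**Figure D4:**
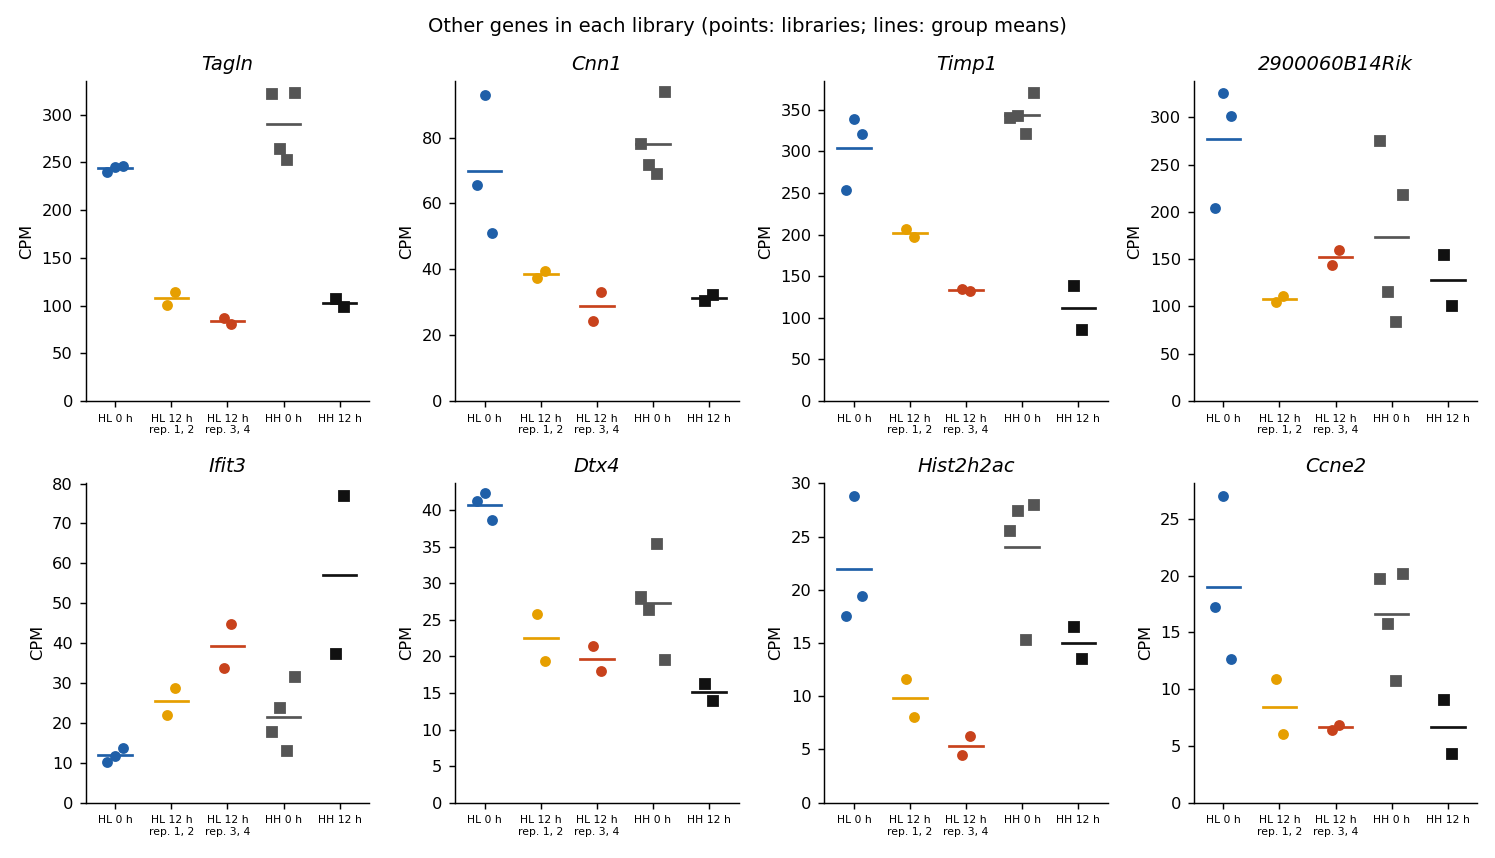
CPM of 8 genes outside the clock (vertical axes, from 0) in each library of HL 0 h, HL 12 h (replicates 1 and 2, and 3 and 4), HH 0 h and HH 12 h, with lines at the means. Tagln, Cnn1 and Timp1 are lower at 12 h in both HL and HH without overlap, whereas the HH groups of 2900060B14Rik overlap.

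Among interferon-stimulated genes, 1 rose by the adjusted test. Ifit3 (ENSMUSG00000074896, chr19:34583531-34588731, plus strand), whose promoter window with its 2 interferon-type elements was printed with the sequences, encodes an antiviral protein. It was at 10.2, 11.7 and 13.6 CPM at 0 h and at 22.1, 28.8, 33.7 and 44.8 CPM at 12 h, without overlap (2.75-fold, log2 1.46 ± 0.24 SE, adjusted p = 0.0245, edgeR). The call of Ifit3 did not hold with replicates 1 and 2 alone (log2 1.09, adjusted p = 0.856) or by library number (log2 1.92, adjusted p = 0.149), and it held with replicates 3 and 4 alone (log2 1.74, adjusted p = 0.00253). Its near-identical neighbour Ifit3b shares sequence with it, so the split of reads between them is uncertain, and Ifit3b had a log2 change of 1.13 ± 0.34 SE. Oasl2, Ifit1 and Isg15 had log2 changes of 1.30, 1.05 and 1.30 (adjusted p = 0.0992, 0.125 and 0.146), each without overlap. In the list of interferon and MHC class I genes, 9 of 22 were higher and 0 lower by an unadjusted p under 0.05, against 2.85% of all genes higher, with a median log2 change of 0.41, and 8 were without overlap (3.57% of all genes were higher without overlap). The 9 included the transcription factors Stat2 and Irf9, while the MHC class I genes H2-K1, H2-D1 and B2m had log2 changes from -0.07 to 0.12. The replicate pairs gave 5 of 22 and 9 of 22 higher and the library numbers 6 of 22, with 0 lower in each, where 2.36%, 1.91% and 3.53% of all genes were higher. In HH 5 of 22 rose by the adjusted test, against 1.16% of all genes, with Ifit3 at 1.46 and Ifit1 at 1.72 on the log2 scale. The libraries of these sets lay far apart. In HH at 12 h Ifit1 was at 41.8 and 89.9 CPM and Oasl2 at 16.1 and 52.1 CPM, the lower of which is within the HH 0 h range of Oasl2 (up to 30.5 CPM). In the 4 libraries named by number Ifit1 was at 44.2, 27.9, 17.5 and 160.8 CPM. Immune cell markers summed to 18.4 to 33.5 CPM at 0 h and 16.3 to 27.5 CPM at 12 h.

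Genes of DNA replication, the copying of the genome before division, gave no adjusted call. Of 47 tested genes of DNA replication and S phase, 18 were lower and 0 higher by an unadjusted p under 0.05, against 2.97% of all genes lower, and the median log2 change was -0.40. The summed level of the 47 genes was 1264, 1364 and 1084 CPM in the 0 h libraries and 997.4, 1026, 827.9 and 911.0 CPM in the 12 h libraries, so the groups did not overlap. Cyclin E2 (Ccne2), which drives entry into S phase, was at 17.3, 27.0 and 12.7 CPM and then at 10.9, 6.02, 6.42 and 6.85 CPM (log2 -1.35 ± 0.29 SE, adjusted p = 0.106). Rfc5 and Rfc2, subunits of the clamp loader of the replication fork, had log2 changes of -0.84 and -0.59, and Lig1, the ligase that joins Okazaki fragments, one of -0.53 (adjusted p = 0.42, 0.534 and 0.527). The pair of replicates 1 and 2 gave 6 lower and 0 higher with a median of -0.32, and replicates 3 and 4 gave 22 lower and 0 higher with a median of -0.55. By library number 18 of 48 were lower and 0 higher, with a median of -0.57. In these 3 fits 3.11%, 2.44% and 3.51% of all genes were lower. In HH 6 of 47 fell by the adjusted test, against 0.65% of all genes, with a median of -0.75. Of 48 mitosis genes, 3 were lower and 1 was higher, against 2.97% and 2.85% of all genes, with a median of -0.09.

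**Figure D5:**
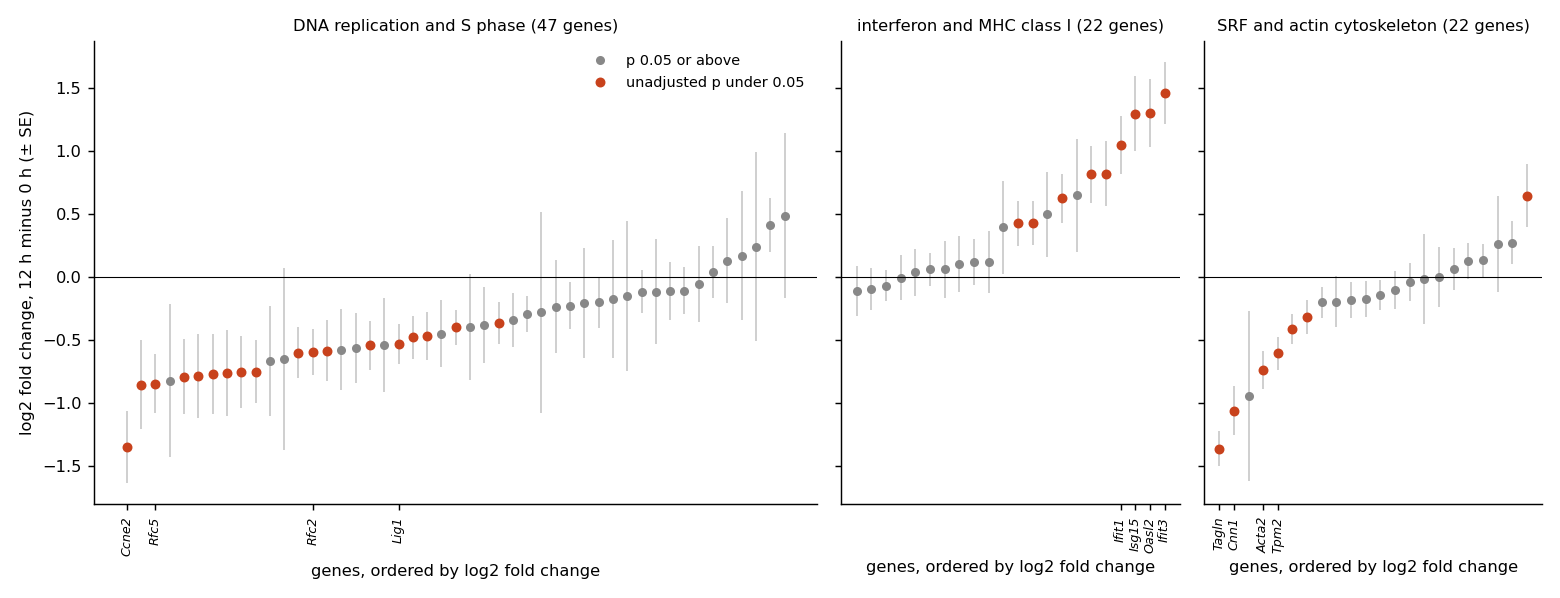
Log2 fold change from HL 0 h to 12 h with its standard error (vertical axis) for each tested gene of 3 lists, ordered by value, with some of the genes described in the text labelled on the horizontal axis. Red points had an unadjusted p under 0.05, namely 18 of 47 replication genes, all lower, 9 of 22 interferon and MHC genes, all higher, and 7 of 22 serum response factor and actin genes, of which 6 were lower.

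The other calls were single genes. Hist2h2ac (ENSMUSG00000068855, chr3:96220361-96220880, minus strand), a histone H2A gene, was at 17.6, 28.8 and 19.4 CPM at 0 h and at 11.6, 8.03, 4.46 and 6.25 CPM at 12 h (2.94-fold lower, log2 -1.56 ± 0.29 SE, adjusted p = 0.0483, edgeR). For Hist2h2ac replicates 1 and 2 alone gave -1.18 (adjusted p = 0.856), replicates 3 and 4 alone -2.00 (adjusted p = 0.0141) and the library numbers -1.30 (adjusted p = 0.0521, edgeR). Histone genes of this kind are near-identical copies, so the counts assigned to this copy are uncertain. Dtx4 (ENSMUSG00000039982, chr19:12466338-12501454, minus strand), a ubiquitin ligase of the Deltex family, was at 41.3, 42.4 and 38.7 CPM and then at 25.9, 19.3, 21.4 and 18 CPM (1.95-fold lower, log2 -0.96 ± 0.18 SE, adjusted p = 0.0483). Neither pair alone gave a call of Dtx4 (log2 -0.88 and -1.04, adjusted p = 0.856 and 0.0947), and the library numbers did (log2 -1.15, adjusted p = 0.0275). The noncoding transcript 2900060B14Rik (ENSMUSG00000107722, chr1:118458652-118459267, minus strand) was at 203.7, 326.4 and 301.7 CPM and then at 104.9, 110.9, 144.0 and 159.8 CPM (2.13-fold lower, log2 -1.09 ± 0.17 SE, adjusted p = 0.0171). It lies within Clasp1 on the opposite strand, whose log2 change was 0.03. The log2 change of 2900060B14Rik was -1.38 with replicates 1 and 2 alone (adjusted p = 0.0251), -0.85 with replicates 3 and 4 alone (adjusted p = 0.154), -0.30 by library number (adjusted p = 0.841) and -0.39 in HH (adjusted p = 0.59). Among the next genes by p, Mtbp was at 12.0, 13.9 and 16.9 CPM and then at 4.27, 6.20, 6.42 and 5.53 CPM (log2 -1.34 ± 0.28 SE, adjusted p = 0.101). Ccdc62 was at 0.204, 0.361 and 0 CPM and then at 5.22, 1.64, 3.39 and 3.13 CPM, and its log2 change of 4.01 ± 0.85 SE (adjusted p = 0.106) rests on 2, 2 and 0 counts in the 0 h libraries. Id3, a target of BMP signals, had a log2 change of 0.93, Agrn, agrin, 1.11, Ltbp1, a TGF-beta binding protein, -0.59, and the small noncoding RNA Bc1 -0.87, none past the adjusted threshold.

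Lists of nutrient pathways, on which the media differ, had 0 to 2 genes in either direction by an unadjusted p under 0.05, beside 2.85% of all genes higher and 2.97% lower, and nothing particular to these lists is read from counts this small. None of 29 tested genes of insulin and IGF signalling had an unadjusted p under 0.05 in either direction, and their median log2 change was 0.07. Of 23 genes of glucose sensing and glycolysis 0 were higher and 2 lower, of 32 genes of sterol and fatty acid synthesis 1 was higher and 0 lower, and of 20 ATF4 and amino acid genes 0 were higher and 2 lower. Immediate early genes, which respond to serum and growth factors within minutes, had 4 of 24 higher and 0 lower, against 2.85% of all genes higher and 2.97% lower, with Egr1 at a log2 change of 0.81 ± 0.24 SE (adjusted p = 0.527) and Fos, from 0.102 to 0.361 CPM at 0 h to 0.475 to 1.56 CPM at 12 h, near the limit of detection. Of 12 mitochondrial genes 0 were higher and 3 lower, against the same shares, with mt-Nd2 at -0.39 ± 0.12 SE.

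The difference between the HL change and the HH change was tested for 12006 genes and none passed an adjusted p of 0.05 (0%) in edgeR. Before adjustment 1038 had a p under 0.05, and DESeq2 gave 2 adjusted calls. For the 9 HL genes the HL change minus the HH change ran from -0.93 (Hist2h2ac) to 0.68 (Timp1) on the log2 scale, with adjusted p-values from 0.501 to 0.999. The 206 calls in HH against 9 in HL therefore do not show that the treatments differ, and HH collection 4 has 2 libraries only.

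The HL calls rest on few libraries. Tagln was the only gene called in each of the 7 fits that left out 1 library. Without collection 1 replicate 3 or without collection 4 replicate 3 it was the only call, with Nr1d1 at an adjusted p of 0.0754 and 0.054 and Nr1d2 at 0.0589 and 0.054 (edgeR), and without collection 4 replicate 4 there were 4 calls. With all 21 HL libraries or all 62 libraries of the series in the fit, whose spread includes the disputed names, 0 genes were called, with log2 changes of Tagln of -1.36 and -1.35 and of Nr1d1 of 3.07 in both fits, and 2.39% and 2.93% of genes had an unadjusted p under 0.05.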

How the data were processed

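RNA of mouse fibroblasts was sequenced by 3′DGE in 62 libraries, most of them in a pair of runs. Per the labels' processing notes, reads were handled with bcl2fastq, STAR 2.6.0a and HTSeq 0.9.1 on mm10, and the authors deposited raw counts per gene for each run, without normalization. Which annotation was used, and whether counting used strand, is not given in the sources used here. Of the 31053 genes listed, symbols and positions of 31011 were found in GENCODE M21 on GRCm38. Reads on no feature (18.87% to 23.92% of a run of the 7 HL libraries compared) and ambiguous reads (0.369% to 0.425%) were left out. The counts of both runs were summed by library.

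Genes that reached 1 CPM in 3 or more of the libraries compared were tested with edgeR 4.0.16 in R 4.3.3 (quasi-likelihood test, TMM scaling, Benjamini-Hochberg adjustment over all genes tested, adjusted p under 0.05). A log2 fold change is 12 h minus 0 h, and SE is its size divided by the square root of F. The procedure was tested on simulated data. DESeq2 1.42.0, other scalings and filters, each run alone, thinning to equal totals, leaving out libraries and the other names of collection 4 were alternatives. In fits with 1 pair of the 12 h libraries the spread is shared with the 0 h group.

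Named genes are the 10 with the smallest p in each direction, the tested clock genes and up to 4 of each other list by p. Overlapping partners, near copies and other list members were named after their values were seen. The groups, gene lists and members were chosen with earlier results of these data known. Promoters are from RefSeq (GRCm38.p6), and no entry was used for Tagln, Dtx4 or Hist2h2ac. Library totals of 4215033 to 9785826 counts mean that 1 CPM is about 4 to 10 counts. Values of a few single list members are not reported here.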

Additional observations from a re-analysis of the deposited data

Results flagged for a closer look

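In groups of 4 libraries the highest or lowest value was set against the gap to its neighbour by Dixon's ratio at its 95% critical value, for 108 combinations of a gene of the text, or of the total count, with HL collection 4 or HH collection 1. Chance marks about 1 in 20 such groups, and 9 were marked. In HL collection 4 these were Cry1 in replicate 2 (19.5 CPM, the others 6.85 to 8.02), Ifit1 in replicate 4 (61.5 CPM, the others 30.6 to 34.9) and Ccne2 in replicate 1 (10.9 CPM, the others 6.02 to 6.85). In HH collection 1 they were Nampt in replicate 1 (13.7 CPM, the others 21.5 to 22.6), Egr1 in replicate 1 (21.8 CPM, the others 8.60 to 10.1), Usp2 in replicate 2 (7.16 CPM, the others 3.25 to 3.50), Tsc22d3 in replicate 2 (29.1 CPM, the others 35.9 to 36.3), Acta2 in replicate 2 (484.1 CPM, the others 700.9 to 732.5) and Postn in replicate 4 (771 CPM, the others 917.4 to 940.6).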

How the results depend on the processing

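The comparison of HL collections gave 9 calls, and 9 with RLE scaling, 8 with the second run alone, 11 after thinning, 12 with a filter over all 62 libraries and 13 with the first run alone. It gave 32 with DESeq2, 5 with library totals only, 47 with every gene that had a count, 5 with a filter of 10 CPM, 0 with all 21 HL libraries or all 62 libraries in the fit, 19 by library number, and, in subsets chosen after seeing the data, 2 with replicates 1 and 2 and 17 with replicates 3 and 4. DESeq2 and the filter on any count kept all 9 genes among theirs. Cnn1, Timp1, Dtx4 and Hist2h2ac lost their calls with library totals only (adjusted p = 0.0553 each, edgeR). They also lost them with the filter of 10 CPM (adjusted p = 0.0595 to 0.0611, edgeR). Leaving out 1 library gave 1 to 11 calls (1 without collection 1 replicate 3 or collection 4 replicate 3, 4 without collection 4 replicate 4). By unadjusted p, 5.83% of genes were under 0.05 and 1.47% under 0.01. With the replicate number as a block there were 5, all among the 9 (Nr1d1, Nr1d2, Ifit3, Tagln and 2900060B14Rik). Libraries of the same number did not deviate together (correlations over genes of -0.126, -0.03 and -0.09). Those of different numbers had correlations from -0.093 to 0.135. With 3 such pairs, and with disputed names, this cannot decide whether the numbers pair the libraries. None of the 128 named genes changed sign where either value was called.

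HH gave 206 calls, 375 with DESeq2, 504 with every gene that had a count, 76 with the replicate block, 33 to 1116 when 1 library was left out, and 16.2% and 6.26% of genes had an unadjusted p under 0.05 and 0.01. The 1116 came without collection 4 replicate 1, which leaves 1 library assumed to vary like the others. The difference between the HL and HH changes gave 0 calls, 2 with DESeq2, 45 with every gene that had a count, 0 to 1 with 1 library left out, 0 with the replicate block, 2 with replicates 1 and 2 only, and 8.65% and 2.01% of genes had an unadjusted p under 0.05 and 0.01. The causes of these shifts were not tested. At 4215033 to 9785826 counts a library, genes near 1 CPM rest on few reads.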
